A study of Mus musculus with 24 samples.

Results

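The mitochondrial ribosomal protein genes were taken as all gene names of the deposited table that consist of Mrpl or Mrps, a number and at most 1 further letter. The pattern matched 78 of 56422 gene names, 49 starting with Mrpl and 29 with Mrps, and all 78 passed the filter on low values used for the tests. RNA came from 24 mouse samples labelled as peritoneal metastasis, with peritoneum as the tissue, 6 in each of 4 groups. The control group was untreated, 1 group received propionate, 1 received butyrate and 1 received both acids, called the combination here. Strain, age, sex, tumour line, doses and treatment times were not given in the sources used here, and the labels do not say whether each sample came from its own animal. If they did not, the spread behind the p-values below may be technical rather than that between mice.

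Mitochondria keep their own ribosome, which translates the few messages of the mitochondrial genome, all of them for membrane proteins of the respiratory chain and the ATP synthase. The RNA of this ribosome is made in the mitochondrion, whereas all of its proteins are encoded in the nucleus, made in the cytosol and imported. The small subunit holds the messenger RNA and the decoding site, and the large subunit holds the peptidyl transferase centre and the exit tunnel. Muscle and brown fat are rich in mitochondria and in this machinery.

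By structure, 51 of the 78 genes encode large subunit proteins, 30 classed with a bacterial counterpart and 21 classed as mitochondrial. Another 26 encode small subunit proteins, 16 classed with a bacterial counterpart and 10 as mitochondrial. The mitochondrial classes hold Mrps18a and Mrps18b, which are paralogues of bacterial S18, so the split is not strict. The names do not always follow the subunit. Mrps18a and Mrps30 are named for the small subunit and sit in the large one, and Mrps36, now known as a subunit of the 2-oxoglutarate dehydrogenase complex, belongs to neither. Mrpl58 encodes a peptidyl-tRNA hydrolase that became a large subunit protein and frees stalled ribosomes.

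The libraries differed in what tissue they held. The summed TPM (transcript abundance per length, scaled to a fixed total) of 16 skeletal muscle genes ran from 70.5 to 162340 across libraries, and Wt1, a marker of mesothelium, from 0 to 368. Wt1 was 0.65 TPM in control replicate 3 and 131 to 368 in the other 5 controls. The sum of 12 epithelial ovarian carcinoma genes was 13.3 in that replicate and 301 to 833 in the other 5. That of 20 cell cycle genes was 63.1 and 332 to 917. Combination replicate 5 stood apart from all others: its muscle sum was the 70.5 and its adipocyte gene sum 22491. Its T cell gene sum was 1232 and its B cell gene sum 1005. Its Wt1 was 0, and its sum of 10 mesothelium genes, Krt19 among them, was 356. Of the 12 epithelial ovarian carcinoma genes 8 passed the filter, and Pax8 was at 0 in 12 libraries. The sum of the 12 had a median of 481 in control, 31.1 with propionate, 67.8 with butyrate and 299 with the combination. The highest sum of all 24 libraries was that of combination replicate 5, at 860. Krt19 is in both the mesothelium and the carcinoma list, and ran from 2.19 to 346 TPM across libraries. The mesothelium sum of 356 in combination replicate 5 therefore need not show mesothelium. TPM keeps no depth, so the depth of the libraries is unknown. In such bulk samples, fewer cells of a type and less RNA per cell cannot be told apart.

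Subunits that assemble in equal number were not equal in RNA. Mean TPM over the 24 libraries, which is scaled per transcript length, ran from 6.75 for Mrpl19 to 489 for Mrps21, a 72.5-fold span. Mrps21, the small subunit protein bS21, averaged 489 ± 61.7 TPM (SD, n = 24), and Mrpl42, a large subunit protein without a bacterial counterpart, 325 ± 81.0. Mrpl33 followed at 295 ± 42.5 and Mrpl30 at 154 ± 20.6, both large subunit proteins with bacterial counterparts. Mrps36, the dehydrogenase subunit, averaged 120 ± 19.3. These 5 genes were the ones above 100 TPM and held 31.1% of the TPM of the family. The ranges over libraries of Mrps21 (359 to 597), Mrpl42 (141 to 447) and Mrpl33 (190 to 392) overlapped. Compared within each library, Mrps21 was above Mrpl42 in 24 of 24, Mrpl33 above Mrpl30 in 24 and Mrpl30 above Mrps36 in 24, while Mrpl42 was above Mrpl33 in only 15 of 24.

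At the other end, 8 genes averaged under 15 TPM. The 5 lowest were Mrpl19 (6.75 ± 1.94, SD, n = 24), Mrpl23 (7.13 ± 1.47), Mrps30 (10.5 ± 1.5), Mrpl35 (11.1 ± 1.85) and Mrpl1 (11.9 ± 1.65). All 5 encode large subunit proteins: Mrpl23 lines the exit of the tunnel and Mrpl1 belongs to the mobile L1 stalk. The median gene of the large subunit averaged 44.6 TPM and that of the small subunit 33.5 TPM.

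**Figure D1:**
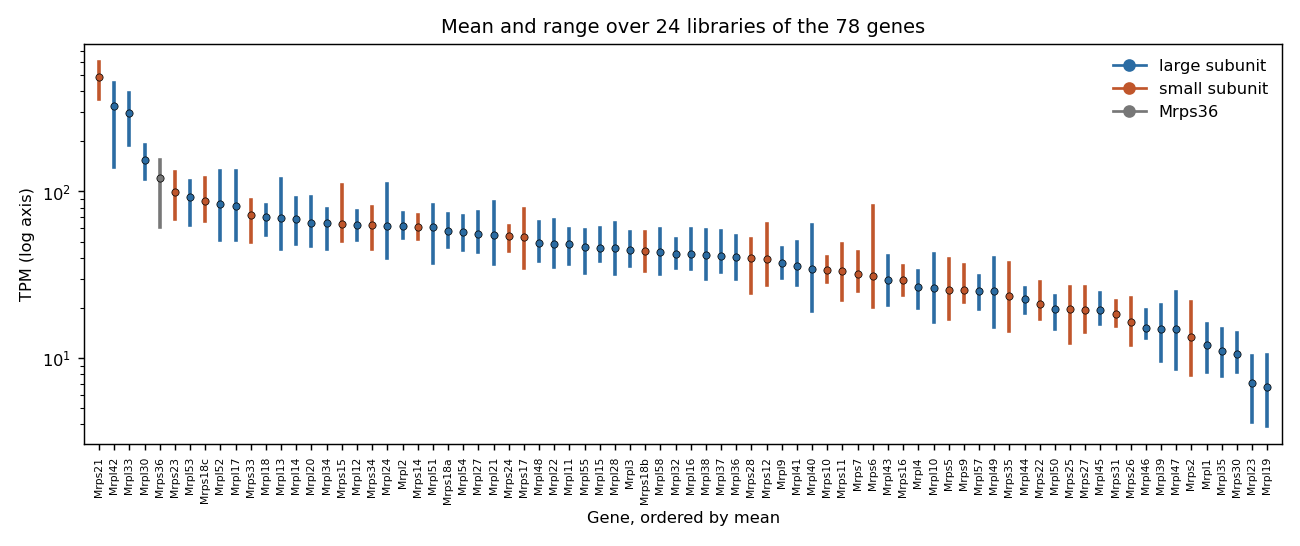
Mean TPM (points) and lowest to highest TPM over 24 libraries (lines) of the 78 genes, on a log axis, in order of the mean and coloured by subunit. Mrps21 stood highest at 489 and Mrpl19 lowest at 6.75, and the large and small subunit genes were mixed along the order.

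Across libraries the family varied little. The SD of log2(TPM + 1) over the 24 libraries had a median of 0.22 for the 78 genes and 0.49 for all 15163 genes tested, and 0.50 for the 8894 genes whose mean TPM lay within the range of the family. A smaller SD than that of the median family member was found in 7.27% of all genes. Highest and lowest library differed by more than 2-fold for 27 of the 78, a count that was not made over all genes. The steadiest were Mrps10, with an SD of 0.11, Mrpl2 (0.12), Mrps31 (0.12) and Mrpl44 (0.13). Mrps10 ranged from 28.6 to 40.4 TPM and Mrpl44 from 18.7 to 26.4. The widest were Mrpl40 (SD 0.48), Mrps6 (0.43), Mrpl42 (0.40) and Mrpl24 (0.40).

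Together the 78 genes took 0.387 to 0.506% of the TPM of a library. The sum for the large subunit was 1.69 to 1.99 times that for the small subunit. The lowest ratio was in combination replicate 5 and the highest in control replicate 2. Group means of this ratio lay close to each other, at 1.90 ± 0.055 in control, 1.85 ± 0.047 with propionate, 1.87 ± 0.046 with butyrate and 1.84 ± 0.086 with the combination (SD, n = 6 each).

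**Figure D2:**
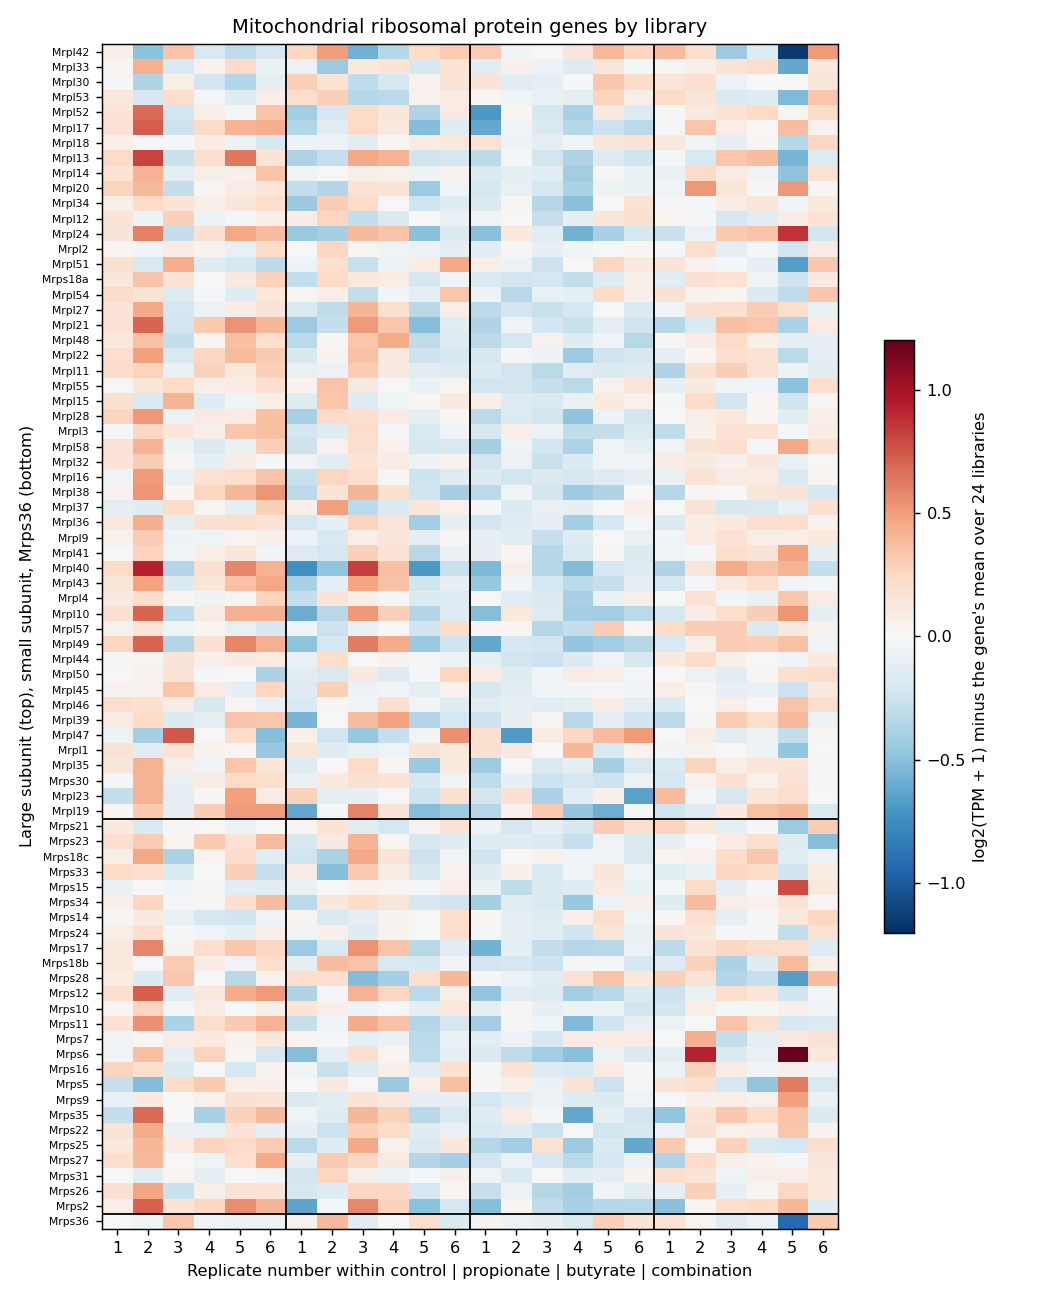
log2(TPM + 1) of each of the 78 genes (rows) minus that gene's mean over 24 libraries, by library (columns, replicate numbers within the 4 groups), red above and blue below the mean. Control replicate 2 and propionate replicate 3 were above the mean for many genes, and combination replicate 5 had the deepest blue (Mrpl42) and the deepest red (Mrps6).

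Some genes did not follow the rest of the family. For each library the mean log2(TPM + 1) of the 78 genes was subtracted, and the SD of what remained was largest for Mrpl42 (0.48), Mrpl47 (0.41), Mrps6 (0.38) and Mrpl40 (0.37). Its median over the 78 genes was 0.19. Mrpl42 and Mrpl40 were highest in different libraries. Mrpl40, a large subunit protein of the central protuberance, was 63.2 TPM in control replicate 2 and 58.7 in propionate replicate 3, where Wt1 was 368 and 336. It was 19.2 in propionate replicate 1, where Wt1 was 1.07. Mrpl42 was 223, 211 and 377 TPM in the same 3 libraries, whose TPM of Acta1, the skeletal muscle actin, was 5696, 5384 and 20076. These 3 libraries were picked, and some others broke the pattern. Mrpl40 was 43.65 TPM in combination replicate 5, where Wt1 was 0, and 36.28 in combination replicate 2, where Wt1 was 15.57. In control replicate 6, which went with the pattern for Mrpl40, it was 43.97 at a Wt1 of 257. Mrpl42 was only 274 TPM in control replicate 6, where Acta1 was 19475. Whether Mrpl40 or Mrpl42 followed Wt1 or Acta1 over all libraries was not tested.

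In combination replicate 5, where Acta1 was 2.52 TPM, Mrpl42 was 141 TPM, the lowest of all 24 libraries. In the other 5 combination libraries Mrpl42 ran from 232 to 447. Mrps6, a small subunit protein with a bacterial counterpart, was 81.8 TPM in combination replicate 5 and 56.4 in combination replicate 2, and 20.2 to 38.1 in the other 22. The Mrps6 locus overlaps Slc5a3, the sodium/myo-inositol cotransporter gene, on the same strand. Slc5a3 was 8.76 and 3.19 TPM in those 2 libraries. Mrpl47 overlaps Actl6a and Ndufb5 on the opposite strand, and ranged from 8.65 TPM in butyrate replicate 2 to 24.9 in control replicate 3. In the GENCODE M21 annotation of the older build GRCm38, 36 of the 78 genes overlap a gene on the opposite strand and 13 one on the same strand. Whether counting used the strand is not given in the sources used here, so reads of such pairs may be shared.

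**Figure D3:**
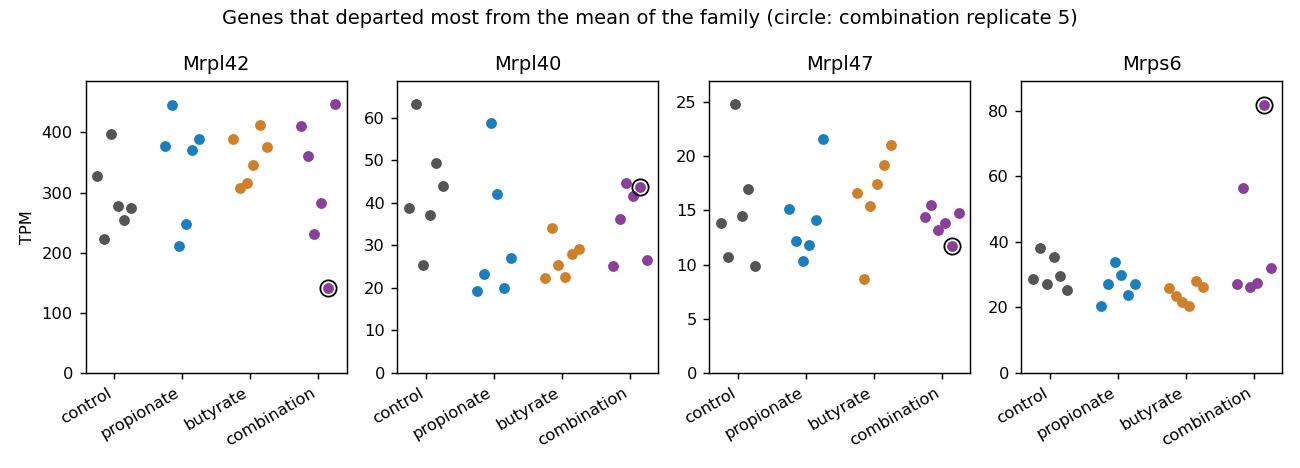
TPM of Mrpl42, Mrpl40, Mrpl47 and Mrps6 in each library, by group (points), with a circle around combination replicate 5. That library was the lowest of all 24 for Mrpl42 (141 TPM) and the highest for Mrps6 (81.8 TPM).

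Summed over the 78 genes, TPM in control ran from 4442 to 5061 with a mean of 4675 ± 221 (SD, n = 6). With butyrate it ran from 3867 to 4620, with a mean of 4172 ± 285. The ranges of these 2 groups overlapped through butyrate replicate 5 at 4620. With propionate the sum was 4402 ± 232 (4079 to 4638) and with the combination 4531 ± 279 (4047 to 4815). Combination replicate 5 was the 4047, and without it the combination averaged 4628 ± 165 (n = 5). RNAs of the mitochondrial genome were taken as all gene names starting with mt-, a rule not limited to messages. They took 12.8 to 22.6% of TPM in control (mean 16.6 ± 3.72) and 14.1 to 24.8% with propionate. With butyrate they took 20.5 to 26.8% (23.2 ± 2.47) and with the combination 13.9 to 21.7%. Since TPM is scaled to a fixed total, a larger mitochondrial share lowers every nuclear gene. These RNAs were then removed and the rest rescaled to the same total. The family summed to 5426 to 5800 in control, 5277 to 5796 with propionate and 5127 to 5965 with butyrate. With the combination it summed to 4698 to 5969, and all these ranges overlap.

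**Figure D4:**
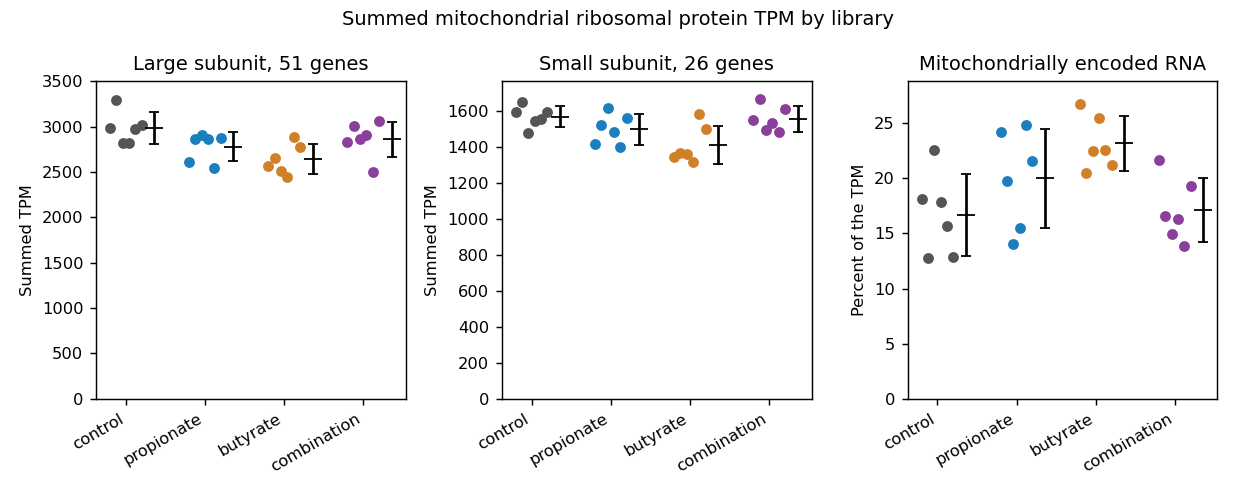
Summed TPM of the 51 large subunit and 26 small subunit genes, and percent of TPM from mitochondrially encoded RNAs, by library (points). Bars give the mean ± SD per group of 6. Most butyrate libraries sit below the controls in both sums, and butyrate has a mitochondrial share of 20.5 to 26.8% against 12.8 to 22.6% in control.

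The design asks first what each acid did alone. In limma's moderated test on log2(TPM + 1), with Benjamini-Hochberg adjustment over 15163 genes, no member of the family passed an adjusted p of 0.05 for butyrate against control (0 of 78), and neither did any other gene (0%). The smallest adjusted p of the family was 0.115. The fitted change was below 0 for 65 of the 78, beside 78.8% of all genes tested, with a median log2 fold change of -0.27 in the family (0.19 after median-of-ratios scaling and 0.18 after quantile normalization) and -0.38 over all genes. An unadjusted p under 0.05 with a lower level under butyrate was reached by 39 of the 78, beside 35.1% of all genes, and with a higher level by 0, beside 1.19%. The count of values below 0 was thus close to the background. The count at an unadjusted p was above it, although the median change was smaller in size than that of all genes. The family's median SD over libraries was 0.22, beside 0.49 for all genes, and the part of this smaller spread in the count was not tested. With mitochondrially encoded RNAs removed, the median was -0.16 in the family, with 52 of 78 below 0, and -0.30 over all genes.

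The subunit classes are given beside the 35.1% of all genes that were lower at an unadjusted p under 0.05 with butyrate. The median log2 change was -0.29 for large subunit genes with a bacterial counterpart, 19 of 30 at an unadjusted p under 0.05 and lower. It was -0.24 for the mitochondrial large subunit genes (10 of 21), -0.11 for small subunit genes with a bacterial counterpart (4 of 16) and -0.31 for the mitochondrial small subunit genes (6 of 10). No difference between classes was tested.

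All 6 butyrate libraries lay below all 6 controls for 9 of the 78 genes (11.5%), beside 1.82% of all genes tested. The 9 were Mrpl11, Mrpl16, Mrpl28, Mrpl38, Mrpl44, Mrps2, Mrps17, Mrps23 and Mrps27. With mitochondrially encoded RNAs removed, 7 of the 78 (8.97%) were apart, beside 1.16% of all genes. The count was 0 after median-of-ratios scaling and 0 after quantile normalization. These 2 scalings set the typical gene equal between libraries, as described below.

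The gene with the smallest p under butyrate was Mrpl28, a large subunit protein with a bacterial counterpart. It was lowest, median and highest 43.0, 51.4 and 65.0 TPM in control and 31.9, 38.5 and 42.7 with butyrate. The groups did not overlap, and the fitted log2 change was -0.46 ± 0.12 (SE), with an adjusted p of 0.115 by limma. Mrps12, a protein of the decoding site, was 35, 48.4 and 63.8 TPM in control and 27.4, 32.2 and 35.1 with butyrate. Only 1 of the 36 pairs of a butyrate and a control library had the butyrate library higher, and the log2 change was -0.59 ± 0.15. Mrpl17, a large subunit protein near the tunnel exit, was 66.2, 99.9 and 132 TPM in control and 51.5, 64.7 and 77.1 with butyrate. Its groups overlapped, and its log2 change was -0.58 ± 0.15. Both also had an adjusted p of 0.115.

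Mrps2 was 13.6, 16.5 and 21.7 TPM in control and 8.78, 9.99 and 13.1 with butyrate, a log2 change of -0.67 ± 0.19 with no overlap. Mrpl38, a protein of the central protuberance, was 41.1, 51.2 and 59.1 TPM in control and 29.6, 33.6 and 40.4 with butyrate (-0.53 ± 0.15). Mrps17 was 53.6, 61.0 and 78.9 TPM in control and 34.8, 41.8 and 49.5 with butyrate (-0.54 ± 0.16). In each of these 3 every butyrate library was below every control. Mrpl11, which forms the base of the stalk that recruits translation factors, was 45.1, 56.7 and 58.4 TPM in control and 38.0, 42.4 and 43.2 with butyrate (-0.38 ± 0.11). The other 3 of the 10 genes of smallest p were Mrps25 (-0.53 ± 0.15), Mrpl49 (-0.68 ± 0.19) and Mrpl22 (-0.44 ± 0.13), whose groups overlapped. The adjusted p was 0.115 for all of them.

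The number of calls for butyrate depended on 1 control library and on the model fitted. With all 24 libraries kept, weights per library called 48 of the 78, beside 67.6% of all genes. A replicate block by library number called 36, beside 52.1%. Without control replicate 3, in which the family summed to 4442 TPM, 33 of the 78 genes were called, all lower with butyrate, while 37.3% of all genes were called. The 10 genes named above were among them, each at an adjusted p of 0.0296 by limma, with log2 changes from -0.43 (Mrpl11) to -0.81 (Mrpl49). Genes whose groups did not overlap then numbered 24 of 78 (30.8%), beside 19.4% of all genes. Wt1 was 0.65 TPM in that control and 0.37 to 166 with butyrate. The mesothelium gene sum, over 10 genes, was 12.8 to 1145 in control with a median of 669, and 12.1 to 407 with butyrate with a median of 110. The sum of the 12 epithelial ovarian carcinoma genes was 13.3 to 833 in control and 11.9 to 301 with butyrate. The sum of 20 cell cycle genes was 63.1 to 917 in control and 40.5 to 295 with butyrate, and that of 16 skeletal muscle genes 31707 to 126880 and 80572 to 125840. Their part in the result was not tested.

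**Figure D5:**
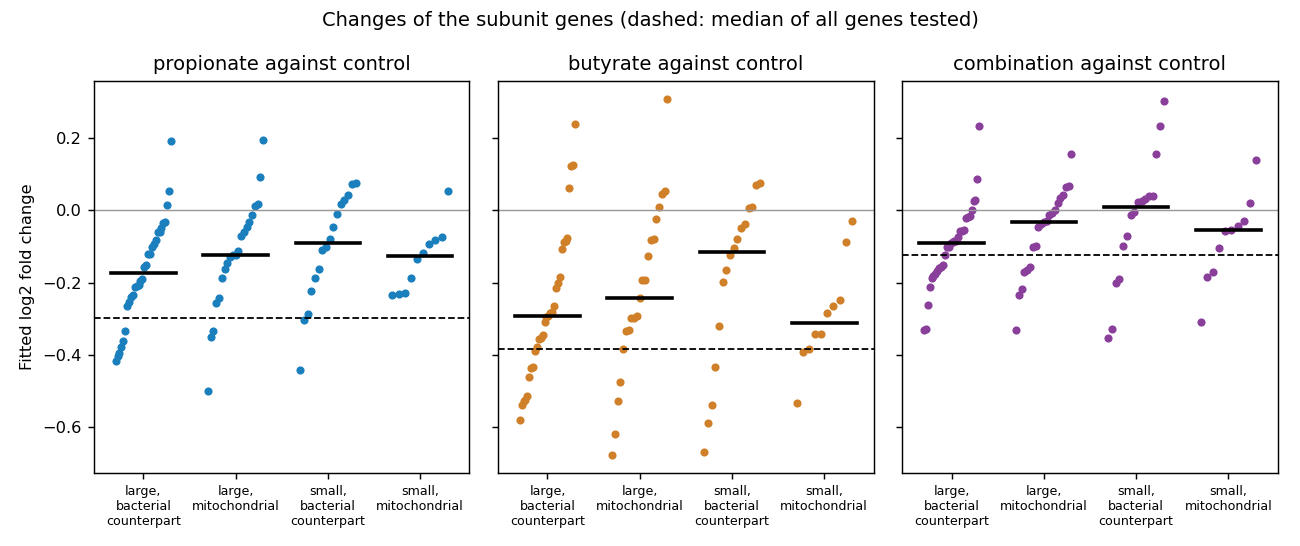
Fitted log2 fold change of each subunit gene (points) against control, by subunit and by class (bacterial counterpart or mitochondrial). The black bar is the class median and the dashed line the median of all 15163 genes tested. With TPM as deposited, the class medians lay above the dashed line in all 3 comparisons, which stood at -0.30 for propionate, -0.38 for butyrate and -0.12 for the combination.

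The start sites of the 3 genes of smallest p under butyrate, and that of Mrpl42, which departed most from the family, are shown because nuclear genes for mitochondrial proteins are known to share factors such as NRF1, ETS family members including GABPA, and YY1. The sequences are the 250 bases before the annotated start from RefSeq, build GRCm38.p6, printed 5′ to 3′ on the strand of the gene, at chr17:26123253-26123502 (Mrpl28, plus strand), chr7:28741822-28742071 (Mrps12, minus strand), chr7:105811088-105811337 (Mrpl17, minus strand) and chr10:95501950-95502199 (Mrpl42, minus strand). Capitals mark matches to GCGCA, any base and GCGC in a row (NRF1), to CCGGAAG (ETS) or to AAGATGGC (YY1) on either strand.
Mrpl28: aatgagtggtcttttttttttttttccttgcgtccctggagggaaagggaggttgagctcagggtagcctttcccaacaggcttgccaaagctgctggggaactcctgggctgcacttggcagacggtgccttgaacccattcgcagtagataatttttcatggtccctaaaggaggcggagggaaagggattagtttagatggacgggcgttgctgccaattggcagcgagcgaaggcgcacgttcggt
Mrps12: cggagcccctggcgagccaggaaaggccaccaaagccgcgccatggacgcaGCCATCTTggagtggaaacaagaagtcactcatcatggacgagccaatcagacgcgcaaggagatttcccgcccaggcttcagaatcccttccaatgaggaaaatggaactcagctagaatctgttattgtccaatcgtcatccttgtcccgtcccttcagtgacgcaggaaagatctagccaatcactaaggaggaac
Mrpl17: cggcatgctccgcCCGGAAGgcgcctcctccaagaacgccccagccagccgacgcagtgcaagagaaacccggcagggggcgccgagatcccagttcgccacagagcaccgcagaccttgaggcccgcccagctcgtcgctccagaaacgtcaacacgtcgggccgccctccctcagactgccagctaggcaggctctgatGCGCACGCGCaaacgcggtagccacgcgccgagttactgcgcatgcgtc
Mrpl42: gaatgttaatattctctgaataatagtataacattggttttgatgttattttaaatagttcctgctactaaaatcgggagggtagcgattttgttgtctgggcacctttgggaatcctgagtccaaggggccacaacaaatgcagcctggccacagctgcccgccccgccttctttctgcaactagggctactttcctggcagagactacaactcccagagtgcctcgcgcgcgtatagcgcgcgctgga

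Mrpl17 carries an ETS match and an NRF1 match, and Mrps12 a YY1 match read on the opposite strand, as GCCATCTT. The Mrps12 window reaches 80 bases into the first exon of Sars2, the mitochondrial seryl-tRNA synthetase gene, which starts in the opposite direction, and the match lies in that exon. The windows of Mrpl28 and Mrpl42 hold no such letters. RefSeq promoters, 300 bases from 250 before to 50 after the start, matched 69 of the 78 genes, with 75 windows. The NRF1 letters were in 13 of the 75 (17.3%), beside 4.60% of all 32851 windows. The ETS letters were in 34.7% beside 8.86% and the YY1 letters in 16% beside 2.75%. Matches were counted also where 2 motifs overlapped. At least 1 of these 3 motifs was in 57.3% of the family's windows and 14.7% of all. The windows of the background were not matched to those of the family in expression or base content. The CCAAT box (CCAAT) was in 40% beside 37.4%, the GC box (GGGCGG) in 52% beside 35.7% and the TATA box (TATAAA) in 6.67% beside 13.6%. A match describes the letters only and shows no binding.

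Under propionate, 0 of 78 genes passed limma's test, as did 0% of all genes, and the smallest adjusted p was 0.333. The fitted change was below 0 for 64 of the 78, beside 79.3% of all genes, with a median of -0.12 in the family (0.24 and 0.19 after the same scalings) and -0.30 over all genes. At an unadjusted p under 0.05, 5 were lower (beside 9.13% of all genes) and 0 higher (beside 0.435%), so the family's counts were at or under the background. For no gene of the family did the groups fail to overlap, beside 0.0264% of all genes lower. Mrpl17 had the smallest p, at 55.2, 72.2 and 94.2 TPM (lowest, median, highest) with propionate beside 66.2, 99.9 and 132 in control, a log2 change of -0.42 ± 0.15 (SE). Mrps2, at 7.95, 11.9 and 19.8 TPM with propionate, had -0.44 ± 0.19, and Mrpl3, which reaches towards the peptidyl transferase centre, had -0.25 ± 0.11. Mrpl38 (-0.33 ± 0.15) and Mrpl21 (-0.40 ± 0.18) completed the 5.

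The next genes in order of p under propionate were Mrpl22 (-0.27 ± 0.13), Mrpl40 (-0.50 ± 0.25), Mrps12 (-0.30 ± 0.15), Mrpl36 (-0.23 ± 0.12) and Mrpl19 (-0.39 ± 0.21), all at an adjusted p of 0.333. In every one of these 10 the groups overlapped. Mrpl40 shows how wide the propionate group was: its libraries ran from 19.2 to 58.7 TPM with a median of 25.1, against 25.4 to 63.2 with a median of 41.4 in control. Wt1 in the propionate libraries ran from 1.07 to 336 TPM. Comparisons with control share the 6 control libraries, so the values for propionate, butyrate and the combination are not independent of each other.

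The combination lay closer to control than butyrate alone did in the fitted medians. None of the 78 genes passed (0% of all genes passed), and the smallest adjusted p of the family was 0.376. The fitted change was below 0 for 57 of 78, beside 65.9% of all genes, with a median of -0.06 in the family (0.05 and 0.06 after the same scalings) and -0.12 over all genes. At an unadjusted p under 0.05, 3 were lower, beside 4.1% of all genes, and 0 higher, beside 6.2%. For no gene of the family were the groups apart in either direction, beside 0.112% of all genes lower and 0.633% higher. The 3 lower ones were Mrps23, Mrps12 and Mrpl38. Mrps23, a small subunit protein without a bacterial counterpart, was 100, 117 and 128 TPM in control and 68.5, 94.9 and 112 with the combination, a log2 change of -0.31 ± 0.12. Mrps12 was 31.9, 37.1 and 44.6 TPM with the combination (-0.35 ± 0.15) and Mrpl38 31.8, 41.0 and 45.3 (-0.33 ± 0.15).

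Among the 10 genes of smallest p, Mrps15 and Mrpl30 lay on the other side of 0. Mrps15 was 57.0, 60.4 and 62.6 TPM in control and 58.2, 65.3 and 109 with the combination (0.23 ± 0.12), and the 109 was combination replicate 5. Mrpl30 was 119, 136 and 161 TPM in control and 145, 161 and 176 with the combination (0.23 ± 0.12), with the combination library higher in 32 of 36 pairs. The remaining 5 were Mrpl22 (-0.26 ± 0.13), Mrpl21 (-0.33 ± 0.18), Mrpl13 (-0.33 ± 0.19), Mrps2 (-0.33 ± 0.19) and Mrpl43 (-0.23 ± 0.14). Their adjusted p ran from 0.494 to 0.539 by limma.

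Against butyrate alone, the combination called 0 of 78 genes (0% of all genes), with a smallest adjusted p of 0.317. The fitted change was below 0 for 10 of the 78, beside 18.4% of all genes, with a median of 0.19 in the family (-0.16 after median-of-ratios scaling and -0.13 after quantile normalization) and 0.30 over all genes. An unadjusted p under 0.05 with a higher level was found for 22, beside 14.6% of all genes, and with a lower level for 0, beside 0.93%. In 5 of the 78 (6.41%), beside 0.686% of all genes, every combination library lay above every butyrate library: Mrpl17, Mrpl20, Mrpl44, Mrpl49 and Mrpl58. With mitochondrially encoded RNAs removed only Mrpl49 remained, beside 0.396% of all genes, and under the other 2 scalings the count was 0. Without combination replicate 1 the count was 11, beside 2.18% of all genes, and without combination replicate 5 or butyrate replicate 5 it was 8, beside 0.851%. Mrpl58, the ribosome rescue factor, was 32.1, 37.7 and 41.1 TPM with butyrate and 41.2, 48.1 and 59.2 with the combination, a log2 difference of 0.36 ± 0.12. Mrpl44, whose protein has a ribonuclease III fold, was 18.7, 19.8 and 21.8 beside 22.0, 23.9 and 26.4 TPM (0.24 ± 0.08), and turned to -0.09 after median-of-ratios scaling and -0.10 after quantile normalization. In both, the lowest combination library was only just above the highest butyrate library. Mrps6 (0.62 ± 0.22) and Mrpl17 (0.43 ± 0.15) were the others among the 4 of smallest p.

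Against propionate alone, 0 of 78 passed (0% of all genes), and the smallest adjusted p of the family was 0.544. The fitted change was below 0 for 19 of the 78, beside 23.1% of all genes. The median was 0.05 in the family (-0.19 and -0.13 after the same scalings) and 0.19 over all genes, and 2 genes had an unadjusted p under 0.05 and a higher level, beside 8.43% of all genes, and 0 a lower one, beside 0.429%. They were Mrpl20 (0.32 ± 0.14) and Mrps6 (0.49 ± 0.22), the latter with combination replicates 2 and 5 as its highest libraries. Mrpl17 (0.27 ± 0.15) and Mrpl58 (0.21 ± 0.12, and -0.04 after median-of-ratios scaling) came next. Between the acids, 0 of 78 passed (0% of all genes) and all adjusted p of the family were 1. The fitted change was below 0 for 65 of the 78, beside 70.3% of all genes. The median was -0.12 in the family (-0.03 and 0.01 after the same scalings) and -0.09 over all genes, and 2 genes were lower with butyrate at an unadjusted p under 0.05, beside 0.541% of all genes, and 0 were higher, beside 0.165%. These were Mrpl44 (-0.18 ± 0.08) and Mrpl28 (-0.25 ± 0.12), followed by Mrps25 (-0.30 ± 0.15) and Mrps30 (-0.22 ± 0.11).

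The interaction asks whether butyrate's difference depended on propionate: it is the difference of combination and propionate minus that of butyrate and control. No gene of the family passed (0 of 78, 0% of all genes), with a smallest adjusted p of 0.128. It was below 0 for 10 of the 78, beside 16.3% of all genes, with a median of 0.34 in the family (-0.37 after median-of-ratios scaling and -0.31 after quantile normalization) and 0.62 over all genes. An unadjusted p under 0.05 with a value above 0 was found for 37, beside 34.8% of all genes, and with a value below 0 for 0, beside 0.95%. Mrpl17 (0.85 ± 0.22) had the smallest p, followed by Mrpl49 (0.85 ± 0.27), Mrpl20 (0.61 ± 0.20) and Mrpl36 (0.50 ± 0.17). Mrpl20 (-0.11) turned sign under median-of-ratios scaling, and Mrpl36 under both scalings (-0.21 and -0.10). Without propionate replicate 3, 30 of the 78 were called, all above 0, while 37.1% of all genes were called.

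The sign of the family's medians depended on how libraries were made comparable. Under median-of-ratios scaling, which moved the median of all genes from -0.38 to 0.01 for butyrate and from -0.30 to 0.01 for propionate, the family's median was 0.19 for butyrate, 0.24 for propionate and 0.05 for the combination. Under quantile normalization it was 0.18, 0.19 and 0.06. Relative to the median of all genes the family lay above in all 3 comparisons with control, by 0.11 for butyrate, 0.18 for propionate and 0.07 for the combination with TPM as deposited. The same difference was 0.19, 0.23 and 0.07 under median-of-ratios scaling and 0.15, 0.15 and 0.06 under quantile normalization. Of the 10 genes named for butyrate, Mrpl28 (0.00), Mrpl22 (0.03) and Mrpl11 (0.09) turned sign under median-of-ratios scaling and Mrpl11 (0.04) under quantile normalization, while the other 7 stayed below 0 under both. Of the 10 named for propionate, Mrpl3, Mrpl22 and Mrpl36 turned sign under both, Mrpl38 and Mrps12 under the first and Mrpl19 under the second. A level below control in TPM and a level above control relative to the typical gene are thus both in these data.

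Other parts of mitochondrial translation, listed by function, gave no call either in any comparison with control. The 5 mitoribosome subunits with other names (Dap3, Ptcd3, Chchd1, Aurkaip1 and Gadd45gip1) had a median log2 change of -0.23 with butyrate, 3 of 5 at an unadjusted p under 0.05 and lower. Dap3, a small subunit protein that binds GTP, averaged 90.1 ± 29.7 TPM in control and 53.1 ± 10.7 with butyrate (-0.70 ± 0.25, SE). Of 20 assembly factors, 18 were below 0 with butyrate and 5 at an unadjusted p under 0.05. The GTPase Noa1 was 8.12 to 14.5 TPM in control and 7.26 to 7.94 with butyrate (-0.52 ± 0.16), and the helicase Dhx30 averaged 18.7 ± 4.75 and 11.2 ± 2.93 (-0.69 ± 0.21).

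Of 15 mitochondrial translation factors, 11 were below 0 with butyrate and 7 lower at an unadjusted p under 0.05. Tufm, the elongation factor that brings aminoacyl-tRNA to the ribosome, was 58.9 to 75.0 TPM in control, 47.7 to 52.9 with butyrate and 55.9 to 63.8 with the combination. Its butyrate and control libraries did not overlap, and the log2 change was -0.37 ± 0.10. Of 20 mitochondrial tRNA synthetases, 19 were below 0 with butyrate and 8 lower at an unadjusted p under 0.05, among them Ears2 (-0.92 ± 0.28) and Tars2 (-0.56 ± 0.18). Of 12 genes of mitochondrial transcription and genome maintenance, 10 were below 0 with butyrate. The helicase Twnk averaged 16.4 ± 4.56 TPM in control and 8.79 ± 2.67 with butyrate (-0.82 ± 0.26). Tfb2m, which opens the promoter for the mitochondrial polymerase, had fitted changes above 0 with all 3 treatments, which share the control libraries. They were 0.36 ± 0.14 with propionate, 0.33 ± 0.14 with butyrate and 0.36 ± 0.14 with the combination. The adjusted p by limma was 0.333, 0.116 and 0.356 in that order. Tfb2m was 14.2 to 21.2 TPM in control, 18.7 to 26.6 with propionate and 17.4 to 27.9 with the combination, ranges that overlap. With propionate 17 of the 20 assembly factors and 19 of the 20 synthetases were below 0, and with the combination 15 and 14. The counts below 0 stand beside 78.8% (butyrate), 79.3% (propionate) and 65.9% (combination) of all genes, and the counts lower with butyrate at an unadjusted p under 0.05 beside 35.1%.

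The 3 paralogues of bacterial S18 can be set apart by where they sit. Mrps18c, the closest to the bacterial protein, averaged 91.5 ± 18.5 TPM in control and 82.7 ± 6.29 with butyrate. Mrps18b, elsewhere in the small subunit, averaged 47.4 ± 4.43 and 39.3 ± 2.96, and Mrps18a, in the large subunit, 65.2 ± 5.65 and 51.6 ± 4.72. Their log2 changes with butyrate were -0.12 ± 0.14, -0.26 ± 0.13 and -0.33 ± 0.11, none past the test. Mrpl12, which besides its place on the ribosome is known to bind the mitochondrial RNA polymerase, averaged 65.8 ± 6.72 TPM in control, 61.8 ± 8.62 with propionate, 62.5 ± 7.37 with butyrate and 62.5 ± 6.25 with the combination. Mrps36 averaged 121 ± 14.3, 125 ± 18.7, 121 ± 15.1 and 114 ± 29.5 TPM in the same order, with a log2 change of 0.00 ± 0.16 for butyrate.

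The table gives transcripts, and the family had 208 of the 32725 that passed the filter. None was called in any comparison with control, as was 0% of all transcripts, and the smallest adjusted p was 0.152, for butyrate. At an unadjusted p under 0.05, 49 of 208 were lower and 3 higher with butyrate, beside 25.7% and 1.23% of all transcripts. With propionate 11 were lower, beside 8.75%, and 1 higher, beside 0.709%. With the combination 5 were lower, beside 5.15%, and 3 higher, beside 4.28%. The smallest p again belonged to a transcript of Mrpl28 (-0.50 ± 0.13). The leading transcript held over 50% of the mean for 70 of the 78 genes, with 99.7% for Mrps6 and 97.7% for Mrpl42. Mrpl48 was the most divided, with 24.9% and 24.9% of its mean in its first and second transcripts out of 10. The leading transcript held 38.2% of Mrpl55, 38.7% of Mrps5, 40.9% of Mrpl51, 42.3% of Mrpl24 and 45.3% of Mrpl30. The leading share of Mrpl48 was 6.40 to 29.9% in control and 20.5 to 32.7% with butyrate, and that of Mrpl55 33.0 to 39.0% and 38.0 to 43.5%, so both pairs of ranges overlapped. The transcripts carry no identifiers in the table, so isoforms are not named.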

How the data were processed

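Per the labels' protocols, TRIzol was used for extraction and a stranded kit with poly(A) selection for the libraries. The submitters' processing notes name fastp, HISAT2, StringTie and the build mm39. The authors deposited 1 table of TPM for 149132 transcripts, each column summing to 1000000, so depth is unknown and no counting interval can be given. TPM was summed by gene name, and 1001 transcripts without a name (0.174 to 0.47% of TPM) were left out.

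The filter kept the 15163 genes that reached a TPM of 1 in 6 or more libraries, and log2(TPM + 1) was fitted with limma 3.58.1 (trend, robust) in R 4.3.3, on all 24 libraries in one fit. A fold change on this scale understates that of low genes. Two-sided p-values were adjusted per comparison over all genes by Benjamini-Hochberg, and 0.05 was the threshold. The sign ± gives the SD beside TPM and the SE beside log2 changes. Transcripts (32725) were tested alike. The scripts were tested on simulated data.

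The members and lists were chosen with earlier results of these data known. Named genes were the 10 of smallest p per comparison with control and the 4 of smallest p elsewhere, the extremes of level, spread and departure, a few genes of known role, the 6 most divided over transcripts, and some of the 2 of smallest p per list. Alternatives were the pseudocount, filters, scalings, weights per library, replicate blocks and leaving out each library. Title numbers were checked for pairing, and same-numbered libraries of different groups had a mean correlation of 0 in their deviations (36 pairs, -0.87 to 0.74). The same check on the library numbers of the column names gave 0.23 (27 pairs), beside -0.04 for other pairs. Neither number is stated to mark pairs, so the main fit was unpaired and blocks were fitted as alternatives only. Coordinates are from older builds, as no sequence of mm39 was used here.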

Additional observations from a re-analysis of the deposited data

Results flagged for a closer look

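The genes named by rule and the sums over the family and over each subunit were checked in each group of 6 for a library far from the other 5. Of 192 such checks 7 found one, while chance flags about 1 in 20 groups. Combination replicate 5 was low for Mrpl1 (8.27 TPM, others 11.3 to 12.2), Mrpl33 (190.13, others 295 to 337) and Mrps36 (61.48, others 108 to 147). Mrps36 was high in control replicate 3 (149.68 TPM, others 113 to 118). Mrpl2 was high in propionate replicate 2 (73.9 TPM, others 56.9 to 62.1). Mrpl47 was low in butyrate replicate 2 (8.65 TPM, others 15.4 to 21.1), and Mrps10 was low in combination replicate 1 (28.61 TPM, others 32.7 to 35.4).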

How the results depend on the processing

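The pseudocount, both filters and the fit without trend or robustness gave 0 called genes of the family in every comparison. The fit on only the groups compared also gave 0, but the interaction was not fitted that way. Median log2 changes of the family reversed under median-of-ratios scaling and quantile normalization for propionate (0.24 and 0.191), butyrate (0.193 and 0.18), combination (0.055 and 0.062), combination against propionate (-0.193 and -0.134), combination against butyrate (-0.156 and -0.126) and the interaction (-0.366 and -0.309), and under quantile normalization for butyrate against propionate (0.013). Centred on the family they were, by construction near 0, 0.015, -0.032, 0.013, -0.013, 0.02 and 0.035 for propionate, butyrate, combination, combination against propionate, combination against butyrate and the interaction in turn, with the sign reversed for propionate, the combination and the combination against propionate. With mitochondrially encoded RNAs removed, butyrate had -0.158 and the interaction 0.182. Weights per library gave 0.184 for combination against propionate and 0.464 for the interaction.

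Named genes that reversed under median-of-ratios scaling were, for propionate, Mrpl3 (0.117), Mrpl38 (0.036), Mrpl22 (0.105), Mrps12 (0.065) and Mrpl36 (0.135), for butyrate Mrpl28 (0.003), Mrpl22 (0.03) and Mrpl11 (0.088), for combination against propionate Mrpl58 (-0.039), for combination against butyrate Mrpl44 (-0.094), and for the interaction Mrpl20 (-0.114) and Mrpl36 (-0.213). Under quantile normalization they were, for propionate, Mrpl3 (0.042), Mrpl22 (0.011), Mrpl36 (0.065) and Mrpl19 (0.001), for butyrate Mrpl11 (0.035), for combination against butyrate Mrpl44 (-0.097) and for the interaction Mrpl36 (-0.1).

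Weights per library, which ran from 0.126 (combination replicate 5) to 6.76 (propionate replicate 5), called 48 genes of the family for propionate, 48 for butyrate, 12 for the combination, 23 for combination against propionate, 9 for combination against butyrate and 53 for the interaction, while calling 75.4, 67.6, 38.2, 33.1, 3.77 and 72.4% of all genes. They called 67 of 208 transcripts of the family for propionate and 61 for butyrate, and 49.8 and 43.8% of all transcripts. A replicate block by title number called 0 in every comparison, and a replicate block by library number called 36 for butyrate (52.1% of all genes) and 17 for the interaction (35.8%). Same library numbers had a mean correlation of 0.23 (-0.39 to 0.7), beside -0.04 for other pairs, and are not stated to mark pairs. The cause of these differences was not tested.

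Leaving out 1 library gave 0 to 33 called genes for butyrate (33 without control replicate 3) and 0 to 30 for the interaction (30 without propionate replicate 3), and 0 in the other 5 comparisons. Genes whose groups did not overlap, alternatives chosen after seeing the data, numbered 9 to 24 for butyrate and 5 to 11 for combination against butyrate when 1 library was left out. They numbered 7 and 1 with mitochondrially encoded RNAs removed, and 0 and 0 under the other 2 scalings. Depth is unknown, so the precision of single TPM values cannot be stated.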
